A study of Saccharomyces cerevisiae with 12 samples.

Results

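The 10 mating and pheromone response genes MFA1, MFA2, STE6, STE2, BAR1, AGA1, AGA2, FUS3, FUS1 and FIG1 were described by their nucleosomes in budding yeast with and without an intact Ioc3 protein. They were taken by name and by their sacCer3 coordinates, out of 6002 coding genes. For each gene, all listed nucleosomes from 800 bp before the start codon to the stop codon were used. MNase-seq, the sequencing of DNA that survives digestion of chromatin with micrococcal nuclease, had been run on 12 samples of Saccharomyces cerevisiae BY4741, a laboratory strain of mating type a. All cultures were in mid-log growth in YPD at 30 °C, and the labels name no pheromone. The Ioc3 groups were a knockout of IOC3 (Ioc3-KO), the double substitution Ioc3-R739E/R742E and the double substitution Ioc3-Q251K/D252K, and the groups they were set against were the wild types WT1, WT2 and WT3. Each of the 6 groups had 2 biological replicates, which the authors joined in 1 nucleosome list, called a pool here. An Ioc3 genotype is therefore 1 pool without replicate error, and a p-value of 1 genotype against wild type measures only the spread between the 3 wild-type pools. The same holds for Ioc3-KO against the point mutants, where each lone pool is assumed to vary as the wild-type pools do. Where the 3 Ioc3 pools are set against the 3 wild-type pools, the Ioc3 pools are 3 different genotypes, not replicates of 1. The SD of the Ioc3 pools and the residual spread of those fits therefore mix differences between genotypes with error. The substitutions, called point mutants below, are named here by their residues only, and the labels used do not say whether any strain is 1 clone. Values of the Ioc3 pools are given in the order Ioc3-KO, then Ioc3-R739E/R742E, then Ioc3-Q251K/D252K, and those of wild type in the order WT1, WT2, WT3.

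Haploid a cells secrete a-factor and sense alpha-factor from cells of the opposite mating type. Binding of alpha-factor releases a G protein that drives a kinase cascade ending in the MAP kinase Fus3, and the transcription factor Ste12 then raises the mating genes. MFA1, MFA2, STE6, STE2, BAR1 and AGA2 are a-specific, switched on by Mcm1 in a cells and repressed in alpha and diploid cells. Ioc3 is a subunit of ISW1a, an ISWI-type remodeler that slides and spaces nucleosomes, with Isw1 as its ATPase.

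The pools listed 76013 to 77652 nucleosomes with 10282804 to 10350515 reads in all. IOC3 (chromosome VI, 169922 to 172285) held 5 listed nucleosomes in Ioc3-KO and 16 in each point mutant, against 16, 16 and 18 in wild type. Their reads were 825, 2355 and 2228 in the Ioc3 pools, against 2392, 2426 and 2570 in wild type, so part of the reads over IOC3 remained in the knockout list. The mating type was looked at through the silent and expressed mating-type genes, whose sequences are shared between loci. The alpha gene MATALPHA1 had 135, 144 and 128 reads in the Ioc3 pools, against 160, 152 and 165 reads in WT1, WT2 and WT3. MATALPHA2, another alpha gene, had 556, 541 and 569 reads in the Ioc3 pools, against 590, 549 and 550 reads in wild type. Of the silent alpha copies, HMLALPHA1 had 178, 116 and 98 reads in the Ioc3 pools, against 147, 156 and 134 reads in wild type. HMLALPHA2 had 570, 587 and 620 reads in the Ioc3 pools, against 576, 546 and 614 reads in wild type. HMRA1, the silent copy of the a gene, had 702, 685 and 743 reads in the Ioc3 pools, against 686, 680 and 665 reads in wild type. HMRA2 had 323, 359 and 335 reads in the Ioc3 pools, against 285, 369 and 365 reads in wild type. Because the sequences are shared, these reads do not decide the mating type. Reads within 50 kb of each mating gene differed from the wild-type mean by log2 -0.02 to 0.04 in the 6 pools.

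The windows of the 10 genes held 137 nucleosomes in Ioc3-KO, 136 in Ioc3-R739E/R742E and 139 in Ioc3-Q251K/D252K, against 135, 134 and 138 in WT1, WT2 and WT3. Summits of all pools were merged into consensus dyads, a dyad being the centre of a nucleosome. Of 129 consensus dyads of the 10 genes, 114 were matched in every pool and could be tested, out of 67780 tested in the genome. A tested member dyad had a median of 140 reads per pool, from 21 to 221, and its mean read position carried a median standard error of 2.82 bp, which covers counting error only, since reads without molecular identifiers are not independent. Positions are distances in bp from the first base of the start codon, negative upstream.

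**Figure D1:**
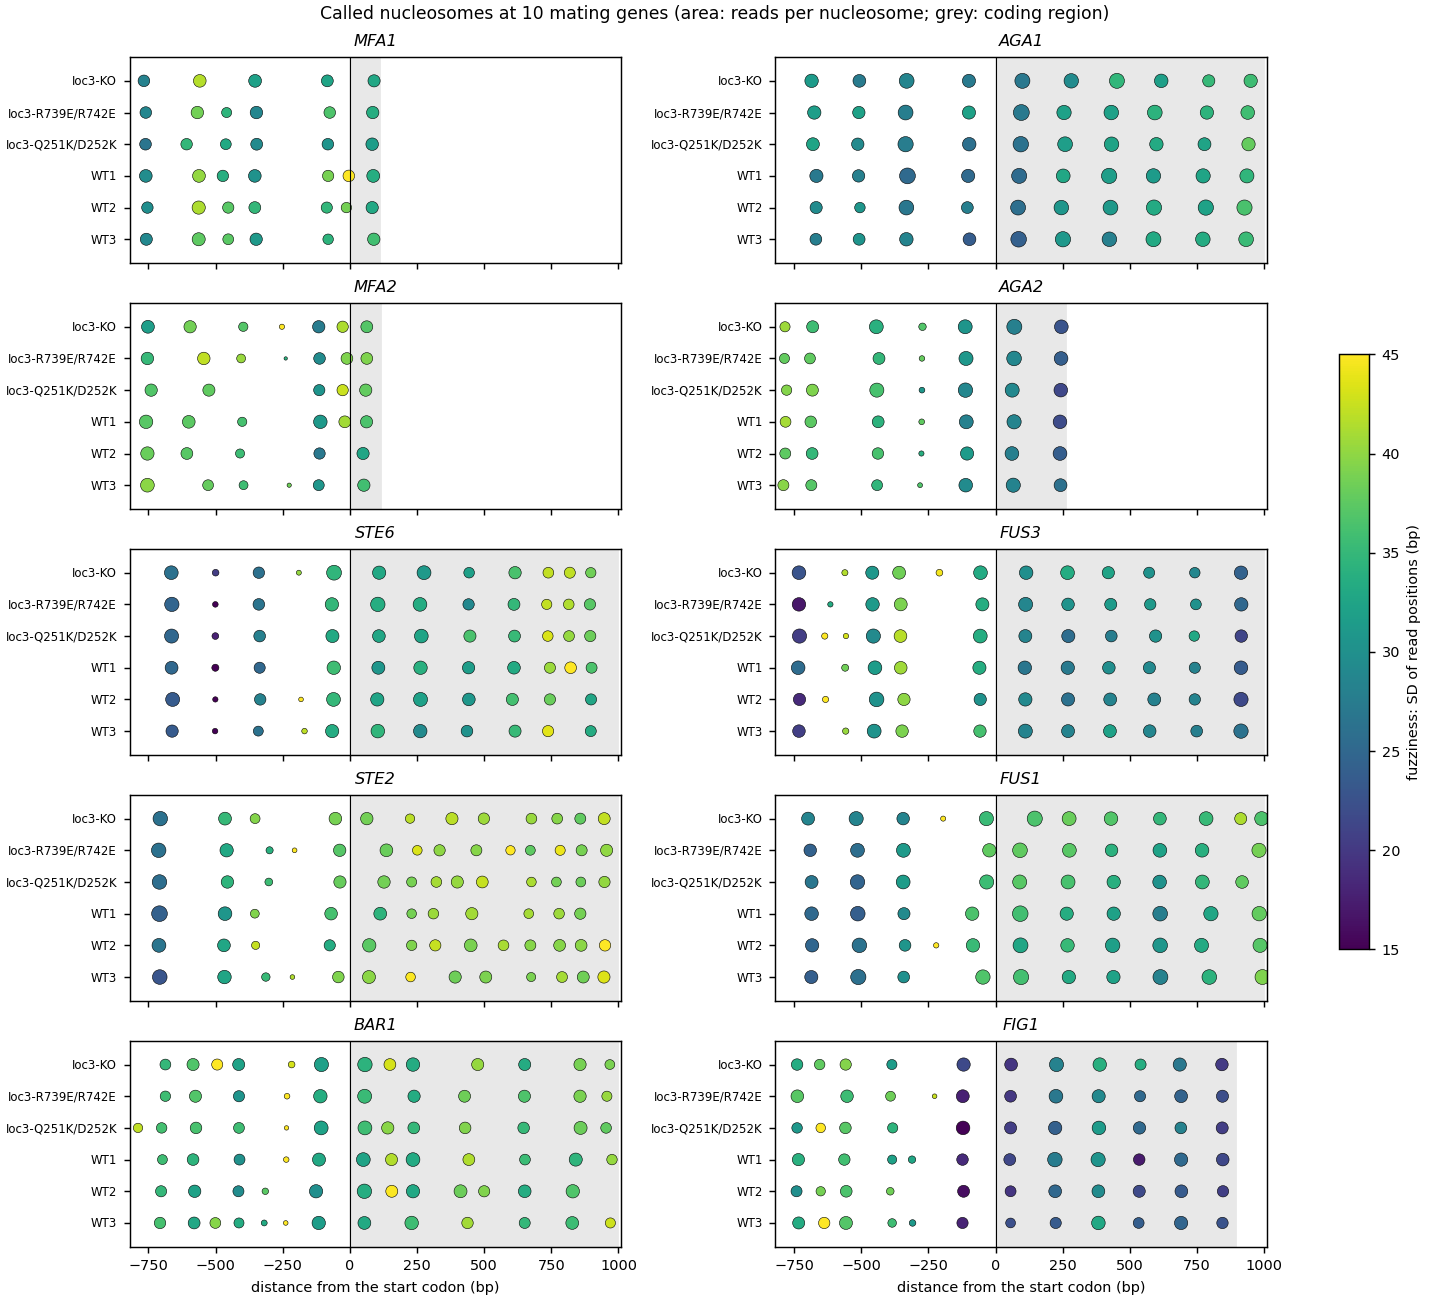
Called nucleosomes at the 10 genes, with the distance from the start codon in bp on the x axis and the 6 pools as rows, Ioc3 pools above wild type. The area of a point is its reads, the colour its fuzziness in bp, and grey marks the coding region up to 1000 bp. STE2 shows broad, unevenly spaced coding nucleosomes in every pool and FIG1 sharp ones.

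The 10 genes differed widely in how well their coding nucleosomes were placed. Fuzziness, the standard deviation of the read positions of a nucleosome, was averaged over the dyads from the start codon to 1000 bp, in 5354 genes with at least 3 of them. STE2 (YFL026W, chromosome VI, 82580 to 83875), the receptor of alpha-factor, averaged 39.7 ± 0.227 bp in the Ioc3 pools and 39.3 ± 0.791 bp in the wild-type pools (SD, n = 3 each). Its wild-type value was at percentile 99.7 of the genes measured, whose median was 27.6 bp. BAR1 (YIL015W, chromosome IX, 322342 to 324105), a secreted protease that degrades alpha-factor, came next with 36.6 bp in wild type, at percentile 96.5. STE6 (YKL209C, chromosome XI, 42423 to 46295, minus strand), the transporter that exports a-factor, had 34.2 bp, and FUS1 (YCL027W, chromosome III, 71803 to 73341), a membrane protein of cell fusion, had 33.6 bp. These values were at percentiles 88.6 and 86.4. AGA1 (YNR044W, chromosome XIV, 703699 to 705876), the anchor subunit of a-agglutinin, had 31.3 bp, at percentile 76.5. FUS3 (YBL016W, chromosome II, 192451 to 193512) was in the middle of all genes with 27.7 bp, at percentile 50.9. FIG1 (YBR040W, chromosome II, 316968 to 317864), a membrane protein needed for calcium entry during mating, had the sharpest nucleosomes of the 7 with 24.0 bp, at percentile 16.1. Neighbours in this order did not overlap between their wild-type pools, except STE6 (34.2 ± 0.392 bp) and FUS1 (33.6 ± 0.280 bp, SD, n = 3 each), whose pools overlapped. The precursor genes of a-factor, MFA1 (YDR461W, chromosome IV, 1385176 to 1385286) and MFA2 (YNL145W, chromosome XIV, 352414 to 352530), and the adhesion subunit gene AGA2 (YGL032C, chromosome VII, 436570 to 436833, minus strand) are too short for a mean over 3 dyads.

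The summits of the same dyad also varied by different amounts between wild-type pools. The median SD of a summit over the 3 wild-type pools was 5.13 bp in STE2 and 1.63 bp in FIG1, against 2.65 bp over all tested dyads. STE2 carried the dyad at 71 bp at 63, 136 and 127 bp in the Ioc3 pools, against 113, 72 and 71 bp in WT1, WT2 and WT3. The groups overlapped, and neither group was uniform.

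The promoter gap was taken as the widest distance between neighbouring nucleosomes around the start codon, so nearly every gene has one by definition. Without entries under 0.25 of a pool's median reads, the mean wild-type gap was 330 bp in AGA2, against a median of 262 bp over all genes. It was 216 bp in FIG1, from widths of 188, 273 and 186 bp in WT1, WT2 and WT3, a range that overlaps that of AGA1 (226, 227 and 235 bp). The window before STE6 holds the tRNA gene TRT2 from -511 to -440 bp. A small entry lay in it at -501 bp with 39, 28 and 40 reads in the Ioc3 pools, against 44, 25 and 27 reads in wild type, and its summit stayed within 2 bp over the 6 pools. Upstream dyads of MFA1, MFA2, STE2, BAR1, AGA1, AGA2, FUS1 and FIG1 can lie in the neighbouring genes TFB3, YNL146W, GYP8, SNL1, MVD1, RPL24A, RNQ1 and ATP3, which the windows reach.

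Position changed at few dyads of the mating genes. With the 3 Ioc3 pools against the 3 wild-type pools, limma called 0 of 114 dyads (11 at unadjusted p under 0.05), against 0.183% of all dyads. In Ioc3-KO alone 2 of 114 were called, both downstream, against 1.28% of all dyads. In Ioc3-R739E/R742E and in Ioc3-Q251K/D252K 0 were called, with 8 and 13 at unadjusted p under 0.05, against 0% of all dyads in each. The members' count in Ioc3-KO is close to the genome-wide share. Without WT1, WT2 or WT3, limma called no dyad in the genome for position in Ioc3-KO. In 23 dyads (20.2%) the Ioc3 pools lay all on one side of the wild-type pools, 14 downstream and 9 upstream, against 17.4% of all dyads.

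AGA1 gave the clearest displacement, spread over the first part of its coding region. The dyad at 594 bp (chromosome XIV, 704293, in the coding region) lay at 617, 593 and 599 bp in the Ioc3 pools, against 588, 590 and 588 bp in WT1, WT2 and WT3. The knockout lay 28.3 bp downstream of wild type (SE 1.81, limma adjusted p = 0.0443), and the point mutants 4.33 and 10.33 bp (SE 1.81, adjusted p = 0.627 and 0.353). All Ioc3 pools were downstream of all wild-type pools there, the knockout by far the most. The knockout call was lost without WT1, WT2 or WT3, at 28.0 to 29.0 bp (adjusted p from 0.248 to 0.260).

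The same held in direction at its neighbours, which were named after their values had been seen and were not called. The dyad at 91 bp lay at 100, 96 and 94 bp in the Ioc3 pools, against 88, 84 and 86 bp in wild type. The dyad at 255 bp lay at 282, 255 and 259 bp in the Ioc3 pools, against 249.3 ± 3.79 bp in wild type (SD, n = 3). At 430 bp the positions were 452, 431 and 432 bp in the Ioc3 pools, against 423, 428 and 424 bp in wild type. In each of these the groups did not overlap, and the lowest adjusted p was 0.0840, for the knockout at 430 bp.

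**Figure D2:**
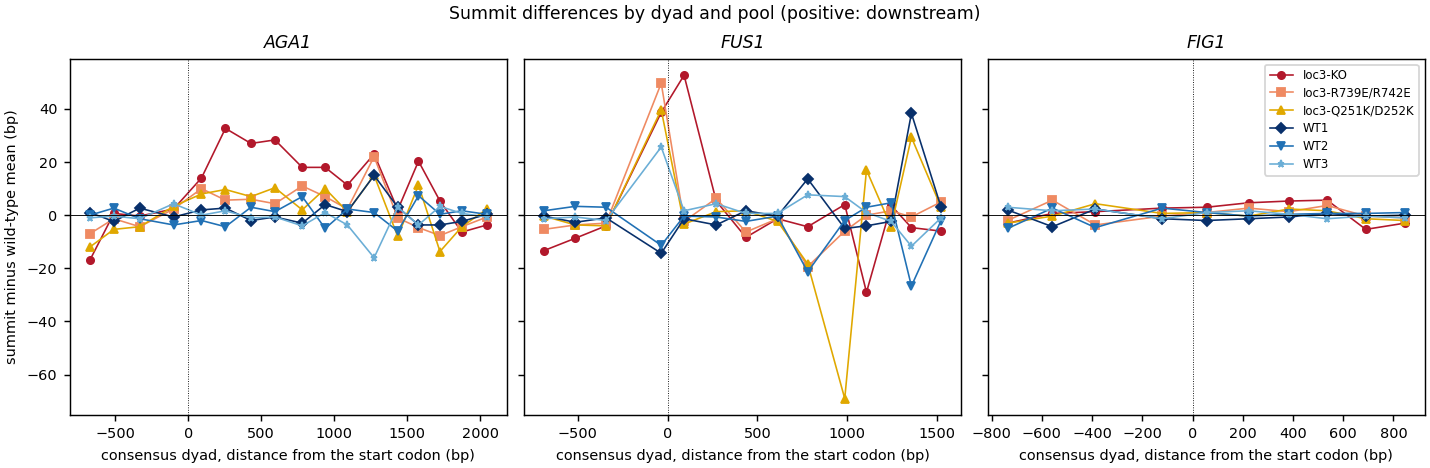
Summit minus the mean of the wild-type pools in bp (y axis, positive downstream) for each tested dyad, placed at its distance from the start codon in bp (x axis), with 1 line per pool. In AGA1 the Ioc3-KO line runs 18.0 to 32.7 bp above the wild-type mean from 255 to 938 bp and returns towards it near the stop codon, whereas FIG1 stays close to 0 in all pools.

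Over its first 1000 bp, the mean dyad position of AGA1 was 532.5 bp in Ioc3-KO, 516.8 bp in Ioc3-R739E/R742E and 517.3 bp in Ioc3-Q251K/D252K, against 510, 509.5 and 509 bp in WT1, WT2 and WT3. The knockout mean lay 23.0 bp downstream (SE 1.26, limma adjusted p = 0.0194), and the point mutants 7.33 bp (adjusted p = 0.284) and 7.83 bp (adjusted p = 0.215), with the same SE. The knockout exceeded the mean of both point mutants by 15.4 bp (SE 1.34, adjusted p = 0.0563), a comparison added after the values had been seen and not called. Over the whole coding region the knockout shift was 14.6 bp (adjusted p = 0.0611), and without WT1, WT2 or WT3 it was 22.75 to 23.25 bp with adjusted p from 0.141 to 0.177, so the call rests on the full set of wild-type pools. AGA1 was 1 of 7 members called for this mean in Ioc3-KO, against 7.92% of all genes. In the other comparisons 0 of 7 were called, against 0.0374% of all genes for the 3 Ioc3 pools together (1 at unadjusted p under 0.05), and 0% for either point mutant (2 each). The median knockout shift of the 7 genes was 3.61 bp, against 0.667 bp over all genes.

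The dyad of AGA1 with the largest mean difference, at 1273 bp, lay at 1283, 1282 and 1275 bp in the Ioc3 pools, against 1275, 1261 and 1244 bp in wild type (20 bp, SE 8.10, limma adjusted p = 0.416). Before AGA1, the dyad at -674 bp, named after its values had been seen, differed in the other direction. It lies in the 3' end of MVD1 and was at -685, -675 and -680 bp in the Ioc3 pools, against -667, -668 and -669 bp in wild type. The mean difference was -12.0 bp (SE 2.79, limma adjusted p = 0.303). The nucleosomes on either side of the AGA1 promoter gap, at -332 and -100 bp, overlapped between the groups.

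FUS1 had the other called dyad, the first in its coding region (92 bp, chromosome III, 71895). It lay at 146 bp in Ioc3-KO, 91 bp in Ioc3-R739E/R742E and 90 bp in Ioc3-Q251K/D252K, against 92, 93 and 95 bp in WT1, WT2 and WT3. The knockout was alone in its displacement, by 52.7 bp from wild type (SE 2.03, limma adjusted p = 0.0341). Against the mean of both point mutants it was 55.5 bp (SE 2.16, adjusted p = 0.0496), where 1 of 114 member dyads was called, against 0.255% of all dyads. The summit is the highest point of a broad nucleosome with a fuzziness of 36.5 bp in the knockout. By the mean read position the knockout shift was 26.3 bp (adjusted p = 0.0866), smaller than the summit's and not called. Without WT1, WT2 or WT3 the summit difference was 52.0 to 53.5 bp and not called (adjusted p from 0.248 to 0.260).

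The nucleosome just before the FUS1 start codon, at -35 bp, showed the members' largest difference between the groups. It lay at -34, -23 and -33 bp in the Ioc3 pools, against -87, -84 and -47 bp in wild type. The groups did not overlap, with means of -30.0 ± 6.08 bp in the Ioc3 pools and -72.7 ± 22.3 bp in wild type (SD, n = 3 each), but WT3 lay nearer to the Ioc3 pools than to WT1. The difference of 42.7 bp (SE 11.5) was not called (limma adjusted p = 0.333). Over the coding region, Ioc3-Q251K/D252K had a mean dyad position that differed from wild type by -15 bp in FUS1 (SE 3.56, limma adjusted p = 0.301). Its dyad at 986 bp, named after its values had been seen, lay at 991, 981 and 918 bp in the Ioc3 pools, against 982, 985 and 994 bp in wild type. Ioc3-KO lists a further entry at 913 bp with 127 reads, so these values depend on which entry was matched.

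BAR1 held dyads with differences of both signs, none of them called with all pools. The dyad with its largest difference, at 965 bp, lay at 968, 957 and 954 bp in the Ioc3 pools, against 976, 1035 and 970 bp in wild type, where WT2 stood apart. The dyad at 846 bp, named after its values had been seen, lay at 857, 857 and 859 bp in the Ioc3 pools, against 841, 830 and 828 bp in wild type. It was 24.7 bp downstream (SE 3.72, limma adjusted p = 0.170), and 28.7 bp without WT1 (adjusted p = 0.0324). Further on, the dyad at 1462 bp lay at 1449, 1456 and 1449 bp in the Ioc3 pools, against 1472, 1487 and 1468 bp in wild type, a difference of -24.3 bp (adjusted p = 0.293). The mean coding position of BAR1 differed by 1.44 bp (SE 3.31, adjusted p = 0.840).

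In the other members no dyad was called for position. The largest differences of the Ioc3 pools from wild type were -15.7 bp at -564 bp for MFA1, 7.33 bp at 58 bp for MFA2 and -16.3 bp at 3237 bp for STE6. They were 23.3 bp at 71 bp for STE2, 4 bp at -275 bp for AGA2, -9.33 bp at -453 bp for FUS3 and 3.67 bp at 536 bp for FIG1. Adjusted p-values of limma for these were 0.355 or higher. FIG1 was the best fixed of the members, with a mean coding position of 457, 456.5 and 455.5 bp in the Ioc3 pools, against 454.7, 455.8 and 455.3 bp in wild type.

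Mean coding fuzziness was higher in the knockout than in wild type at 6 of the 7 genes, and it was called at FIG1 and FUS1. FIG1 averaged 27.1 bp in Ioc3-KO, 24.6 bp in Ioc3-R739E/R742E and 25.0 bp in Ioc3-Q251K/D252K, against 23.8, 23.3 and 25.0 bp in WT1, WT2 and WT3. The knockout value was 3.07 bp higher (SE 0.920, limma adjusted p = 0.0134) and the highest of all pools. A single dyad, at 536 bp, carried most of it: 4 of its 6 coding dyads were broader in the knockout and 2 sharper, and the other 5 differed by a mean of 1.12 bp. FUS1 averaged 36.3, 35.6 and 35.1 bp in the Ioc3 pools, against 33.3, 33.5 and 33.9 bp in wild type. All Ioc3 pools of FUS1 lay above all wild-type pools, and the knockout differed by 2.79 bp (SE 0.881, adjusted p = 0.0176), with 5 of 6 dyads broader. For the 3 Ioc3 pools together FUS1 had 2.13 bp (SE 0.764, adjusted p = 0.0635), which was not called. STE6 had 35.6, 35.1 and 36.4 bp in the Ioc3 pools, against 34.4, 33.7 and 34.4 bp in wild type (1.497 bp, SE 0.766, adjusted p = 0.179), without overlap but not called. AGA1 had 32.3, 32.6 and 32.3 bp in the Ioc3 pools, against 31.4, 31.6 and 30.8 bp in wild type. Its groups did not overlap either, and the difference of 1.13 bp (SE 0.758, limma adjusted p = 0.300) was not called. FUS3 averaged 29.9, 29.5 and 27.7 bp in the Ioc3 pools, against 27.5, 27.0 and 28.6 bp in wild type. Its knockout value was the highest of all pools, 2.18 bp above wild type (SE 0.918, limma adjusted p = 0.0620), and not called.

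Of the 7 genes, 2 were called in Ioc3-KO, against 38.1% of all genes. For the 3 Ioc3 pools together 0 of 7 were called (1 at unadjusted p under 0.05), against 8.78% of all genes. In Ioc3-R739E/R742E and Ioc3-Q251K/D252K 0 of 7 were called (1 each unadjusted), against 0.187% and 0.0187% of all genes. The median knockout difference of the 7 was 1.37 bp, against 1.83 bp over all genes. The genes with the broadest nucleosomes in wild type had knockout differences of 0.565 bp (STE2, adjusted p = 0.625) and -0.125 bp (BAR1, adjusted p = 0.917).

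**Figure D3:**
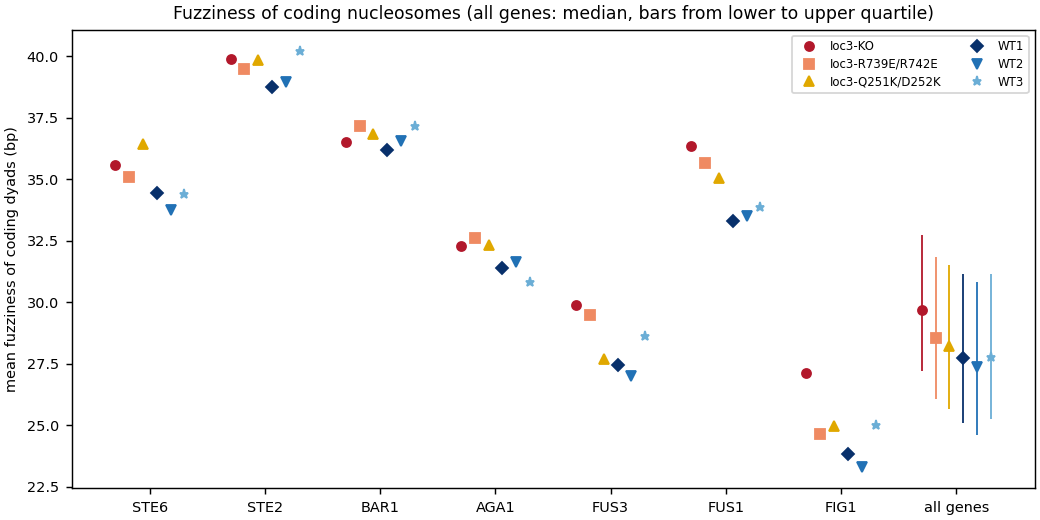
Mean fuzziness of coding dyads in bp (y axis) for the 7 genes with at least 3 such dyads and, at the right, the median and quartiles over all 5354 genes, with 1 symbol per pool and Ioc3 pools left of wild type. The Ioc3-KO value tops the other pools in FIG1, FUS1 and FUS3 and over all genes, and lies within the other pools in STE6, STE2, BAR1 and AGA1.

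Of single dyads, 0 of 114 were called for fuzziness in any comparison, with 12, 14, 3 and 10 at unadjusted p under 0.05 for the 3 Ioc3 pools together and then for each genotype. The shares of all dyads called were 0.00443%, 0.0148%, 0.00590% and 0.0236% in the same order. The groups did not overlap at 20 dyads (17.5%), 17 of them broader in the Ioc3 pools, against 17.5% of all dyads. The largest mean difference of the members, 7.92 bp (SE 2.38, limma adjusted p = 0.295), was at the small STE6 entry at -501 bp. Its fuzziness was 20.3, 11.4 and 17.7 bp in the Ioc3 pools, against 13.0, 8.56 and 4.16 bp in wild type, with overlap. Within FIG1 the dyad at 536 bp had the largest difference, with 34, 25 and 25 bp in the Ioc3 pools, against 17, 22 and 24 bp in wild type. The knockout was 12.8 bp broader (SE 2.46, limma adjusted p = 0.116).

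Peak height, the authors' signal at the summit as log2 over the median of its pool, changed at 1 dyad. That dyad lies inside the promoter gap of AGA2 at -275 bp (chromosome VII, 437108, intergenic). It held 49, 27 and 29 reads in the Ioc3 pools, against 29, 24 and 21 reads in WT1, WT2 and WT3. Its log2 height was -1.38, -2.27 and -2.02 in the Ioc3 pools, against -2.40, -2.71 and -2.94 in wild type. The entry was low in every pool and highest in the knockout, by log2 1.30 over wild type (SE 0.197, limma adjusted p = 0.0472), and by 1.18 with heights as deposited (adjusted p = 0.0602).

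In Ioc3-KO 1 of 114 dyads was called for height, against 0.179% of all dyads. For the 3 Ioc3 pools together 0 were called (20 at unadjusted p under 0.05), against 0.493% of all dyads. In Ioc3-R739E/R742E and Ioc3-Q251K/D252K 0 were called (5 and 15 unadjusted), against 0.0162% and 0.808% of all dyads. The groups did not overlap at 32 dyads (28.1%), 13 higher and 19 lower in the Ioc3 pools, against 22.0% of all dyads, 10163 higher and 4756 lower.

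Relative to the median of their pool, the nucleosomes that flank the promoter gaps had slightly higher peaks in the Ioc3 pools, at the 10 genes and at most genes. Of 19 tested flanking dyads all 19 had a higher mean log2 height in the Ioc3 pools, against 88.5% of the flanking dyads of all genes. At 7 of the 19 every Ioc3 pool exceeded every wild-type pool, against 33.0% over all genes. The median difference was log2 0.18 at the members and 0.17 at all flanking dyads, close to each other. With heights as deposited, where the pool medians differ by log2 -0.08, the counts were 18 of 19 higher (MFA2 at -114 bp was lower), against 74.6% of all flanks, and 5 of 19 with every Ioc3 pool above every wild-type pool, against 20.6%, with medians of log2 0.10 and 0.09. MFA1 at -81 bp and FUS1 at -35 bp then overlapped between the groups. With all pools and dyads, no flank was called by limma for the 3 Ioc3 pools together. Without the least occupied quartile of dyads, AGA2 at -439 bp and FIG1 at -121 bp were called (limma adjusted p = 0.0191 and 0.0298). AGA2 at -439 bp was also called without WT1 (adjusted p = 0.0451).

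AGA2 had the lowest adjusted p of these at -439 bp, with 169, 125 and 174 reads in the Ioc3 pools, against 124, 116 and 104 reads in wild type. Every Ioc3 pool was above every wild-type pool, and the height difference was log2 0.55 (SE 0.128, limma adjusted p = 0.0830). FIG1 was higher on both sides of its gap. At -387 bp it held 90, 86 and 92 reads in the Ioc3 pools, against 73, 51 and 65 reads in wild type (log2 height difference 0.56, adjusted p = 0.138). At -121 bp it held 155, 146 and 163 reads in the Ioc3 pools, against 117, 126 and 111 reads in wild type (log2 0.45, SE 0.104, adjusted p = 0.0841). That nucleosome is a sharp one, with a fuzziness of 15 to 22 bp in the 6 pools. FUS1 at -342 bp held 138, 170 and 168 reads in the Ioc3 pools, against 129, 120 and 121 reads in wild type (log2 0.39, adjusted p = 0.124). MFA1 at -81 bp had log2 heights of 0.02, -0.41 and -0.03 in the Ioc3 pools, against -0.48, -0.42 and -0.67 in wild type (adjusted p = 0.174).

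**Figure D4:**
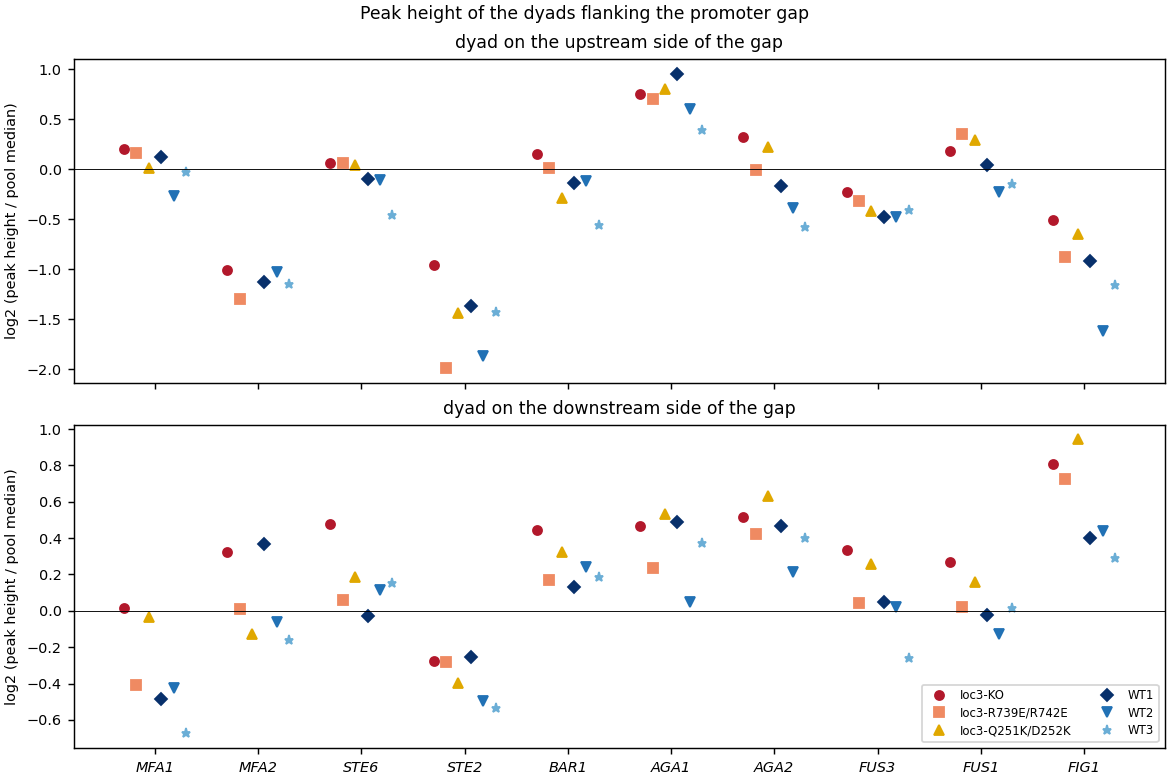
Log2 peak height over the median of the pool (y axis) for the dyads on the upstream (top) and downstream side (bottom) of the promoter gap of each of the 10 genes (x axis), with 1 symbol per pool and Ioc3 pools left of wild type. Every Ioc3 symbol lies above every wild-type symbol at both flanks of FIG1 and FUS1, at the upstream flanks of AGA2 and STE6 and at the downstream flank of MFA1, on this scale; the upstream flank of MFA2 had no matched entry in Ioc3-Q251K/D252K and was not tested.

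The promoter gap was called narrower in 1 member, in Ioc3-KO. At FUS3 the gap measured 170 bp in Ioc3-KO, 304 bp in Ioc3-R739E/R742E and 297 bp in Ioc3-Q251K/D252K, against 293, 284 and 290 bp in WT1, WT2 and WT3. The knockout list alone has an entry inside the gap, at -209 bp with 40 reads and a fuzziness of 45 bp. The log2 width was -0.77 from wild type (SE 0.035, limma adjusted p = 0.0170) and -0.82 from the mean of both point mutants (SE 0.037, adjusted p = 0.0279). The call rests on the listing of that entry, and it was lost without WT1, WT2 or WT3 (adjusted p from 0.0864 to 0.0963). The gaps of MFA1 and AGA1 were alike in all pools, at 269, 273 and 265 bp in the Ioc3 pools, against 273, 268 and 268 bp in wild type for MFA1, and at 232, 236 and 237 bp in the Ioc3 pools, against 226, 227 and 235 bp in wild type for AGA1.

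Other widths differed as much within the groups as between them. MFA2 had 144, 166 and 411 bp in the Ioc3 pools, against 291, 296 and 170 bp in wild type. STE6 had 168, 272 and 271 bp in the Ioc3 pools, against 276, 163 and 172 bp in wild type. STE2 had 299, 174 and 265 bp in the Ioc3 pools, against 284, 276 and 171 bp in wild type. In these genes the narrow widths were those of pools with an entry inside the gap. FUS1 had 161, 320 and 311 bp in the Ioc3 pools, against 254, 177 and 295 bp in wild type, and FIG1 267, 178 and 262 bp in the Ioc3 pools, against 188, 273 and 186 bp in wild type. BAR1 and AGA2 had widths of 170 to 197 bp and 170 to 183 bp over the 6 pools.

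Of the 10 members, 0 were called for width in the 3 Ioc3 pools together (0 also at unadjusted p under 0.05), against 0.701% of all genes. In Ioc3-KO 1 was called, against 4.91% of all genes, and 1 against both point mutants, against 6.39%. In Ioc3-R739E/R742E and Ioc3-Q251K/D252K 0 were called (0 unadjusted), against 4.89% and 5.24%. The comparisons of single genotypes for width were added after values had been seen. Without WT1, WT2 or WT3, limma called no gene in the genome for width in any single genotype. Without entries under 0.25 of the median reads, AGA2 was called too in Ioc3-KO. Its gap was then 183 bp in Ioc3-KO, 324 bp in Ioc3-R739E/R742E and 330 bp in Ioc3-Q251K/D252K, against 328, 332 and 330 bp in WT1, WT2 and WT3 (log2 -0.85, adjusted p = 0.00169), since the entry at -275 bp passed that limit in the knockout only. MFA2 was then called in Ioc3-Q251K/D252K, with a gap of 411 bp, against 291, 296 and 280 bp in wild type (log2 0.51, adjusted p = 0.0405), since its list has no entry matched to the dyad at -402 bp.

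No member was called for its read sum. Over the 800 bp before the start codon edgeR called 0 of 10 genes (1 at unadjusted p under 0.05), against 0.200% of all genes, and DESeq2 also called 0. Over the coding region it called 0 of 10 (2 unadjusted), against 0.100%, as did DESeq2. MFA1 had the lowest unadjusted p, with 528, 598 and 581 promoter reads in the Ioc3 pools, against 772, 709 and 612 in WT1, WT2 and WT3 (log2 -0.35, edgeR adjusted p = 0.359). The Ioc3 pools list 4, 5 and 5 entries there, against 6, 6 and 5 in wild type, and over dyads matched in all pools the difference was log2 -0.09 (adjusted p = 0.361). AGA1 had 2031, 2186 and 2188 coding reads in the Ioc3 pools, against 2363, 2310 and 2331 in wild type (log2 -0.11, adjusted p = 0.426). FUS3 had 819, 814 and 783 coding reads in the Ioc3 pools, against 856, 890 and 908 in wild type (log2 -0.12, adjusted p = 0.348).

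Many other genes of the pathway had broader coding nucleosomes in the knockout, where 38.1% of all genes were called. Of 15 tested signalling genes 8 were called for coding fuzziness in Ioc3-KO, all 8 higher, and 13 of the 15 had a positive difference. STE12, the transcription factor of the pathway, had 33.1, 29.7 and 30.8 bp in the Ioc3 pools, against 27.4, 26.4 and 28.0 bp in wild type (knockout difference 5.81 bp, SE 0.917, limma adjusted p = 0.0002). STE7, a kinase of the cascade, rose by 5.18 bp, DIG2, an inhibitor of Ste12, by 3.68 bp and STE11, another kinase, by 3.41 bp. The median of the list was 2.38 bp, against 1.83 bp over all genes.

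Of 17 genes induced by pheromone or used in fusion, among them AGA1, FUS1, FUS3 and FIG1, 8 were called in Ioc3-KO. Of the called, 7 were higher (FUS1 and FIG1 included) and 1 was lower, and 14 of the 17 had a positive difference. PRM3, of nuclear fusion, rose by 5.70 bp, PRM5 by 4.996 bp and PRM6 by 4.81 bp, while PRM2 fell by 2.53 bp (adjusted p = 0.0353). Of 8 genes of pheromone maturation and export, which include STE6, 5 were called, all higher, and 7 had a positive difference. Among the called were RAM2, a farnesyltransferase subunit, higher by 3.50 bp, and AXL1, a protease that matures a-factor, by 3.23 bp. Of 3 tested alpha-specific genes all 3 had a positive difference and 1 was called, MF(ALPHA)1, the alpha-factor gene, 2.91 bp higher. In the 3 Ioc3 pools together limma called 3 signalling genes (STE12, DIG2 and STE20), 3 induced genes (PRM3, PRM5 and PRM6), 1 maturation gene (AXL1) and 0 alpha-specific genes. All of these were higher, and the share called of all genes was 8.78%. Positive differences, called or not, were held by 13 of 15, 15 of 17, 6 of 8 and 3 of 3 genes in the same order. Without WT2, and over the whole coding region, limma called 0 of 5354 genes (952 and 1442 at unadjusted p under 0.05).

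Mean coding position in Ioc3-KO was called at 4 of the 17 induced genes, against 7.92% of all genes. Without WT1, WT2 or WT3, and over the whole coding region, limma called 0 of 5354 genes (1201, 1363, 1259 and 1316 at unadjusted p under 0.05), so each of these calls was lost there. Besides AGA1, FUS2, of cell fusion, moved 14.8 bp downstream (SE 1.96, limma adjusted p = 0.0370), PRM6 moved 11.1 bp downstream and PRM10 moved upstream, by -14.3 bp. AXL1 was the 1 maturation gene called, 7.83 bp downstream (adjusted p = 0.0475). Of 15 signalling genes and 3 alpha-specific genes 0 were called (limma, 2 and 1 at unadjusted p under 0.05). For the width of the promoter gap in Ioc3-KO, 1 of 16 signalling genes and 2 of 17 induced genes (FUS3 and PRM3) were called, against 4.91% of all genes. DIG1, an inhibitor of Ste12, fell by log2 0.62 and PRM3 rose by log2 0.57 (limma adjusted p = 0.0257 and 0.0274). Neither was called without weak entries (adjusted p = 0.649 and 0.862). In Ioc3-R739E/R742E 1 signalling gene was called narrower, against 4.89% of all genes. In Ioc3-Q251K/D252K 1 induced gene was called wider and 1 alpha-specific gene narrower, against 5.24%.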

How the data were processed

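Per the labels' protocols, micrococcal nuclease was used at 600, 1200 and 2400 gel unit per ml. Per the submitters' processing notes, Trimmomatic, Bowtie2 and SAMtools were used with the build sacCer3, without versions, and the nucleosome caller is not given in the sources used here. Per the file headers, each nucleosome has a summit, a mean position and the SD of its reads' positions (in bp), a peak height taken from the authors' signal, whose scale is not stated, and a read count. Pool totals differ by little, and whether the deposited counts were brought to a common depth cannot be decided. How reads were shared between close nucleosomes is not stated: entries less than 100 bp apart held medians of 117 to 122 reads, against 145 to 148 at 150 to 180 bp, so read sums can move with the number of entries.

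Consensus dyads were maxima of the summits of all 6 pools, smoothed with an SD of 20 bp and at least 100 bp apart. Of 73110, 67781 had a mutually nearest summit within 70 bp in every pool and 67780 were tested. limma 3.58.1 (lmFit, eBayes) was fitted to all tested dyads, to gene means of dyads up to 1000 bp after the start codon, and to the log2 width of the widest gap whose middle lay no more than 400 bp upstream and 50 bp downstream of the start codon's first base. edgeR 4.0.16 (quasi-likelihood test, TMM) was fitted to the read counts per gene, DESeq2 1.42.0 as an alternative, with R 4.3.3 and Python 3.11.15. P-values were Benjamini-Hochberg adjusted over all features of a fit, and called at 0.05. For 1 genotype against wild type, and for Ioc3-KO against the point mutants, the residual spread comes from the wild-type pools alone. The fits were also run on simulated data whose pools all varied alike, which cannot check how a lone Ioc3 pool varies.

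The members and the pathway lists were chosen with earlier results of these data known. Named were all 10 members, with the dyads beside the gap, called dyads and the dyad of largest difference, and up to 4 called genes per list. Dyads named after their values had been seen are marked. Gene names and strands came from the RefSeq gene table (R64), and whether the lists count from 0 or 1 is not stated. Sequences and motifs were not analysed here. Smoothed tracks were not used here. Alternatives were other matching, filters, read positions, scales and leaving out each pool.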

Additional observations from a re-analysis of the deposited data

Results flagged for a closer look

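The first coding nucleosome of FUS1, at 92 bp, lay 55.5 bp further downstream in Ioc3-KO than in the mean of both point mutants (limma adjusted p = 0.0496). By the mean read position it was 26.5 bp and not called (adjusted p = 0.138). The promoter gap of FUS3 was narrower in Ioc3-KO than in the mean of both point mutants by a log2 width of -0.822 (limma adjusted p = 0.0279), with an entry of 40 reads inside the gap in the knockout list only. Both comparisons were added after values had been seen, with a residual spread from the wild-type pools alone, and both were lost when WT1, WT2 or WT3 was left out, with adjusted p from 0.331 to 0.346 for FUS1 and from 0.113 to 0.117 for FUS3.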

How the results depend on the processing

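No paired analysis was possible because both replicates of a group are joined in 1 list. For the named genes, 39 alternatives kept the call, 24 lost it in the same direction and 0 reversed. The 2 position calls of Ioc3-KO (FUS1 at 92 bp, AGA1 at 594 bp) were 0 with a matching limit of 50 bp, 0 with the mean read position and 0 without WT1, WT2 or WT3. The AGA1 shift call of Ioc3-KO was 0 over the whole coding region, 0 without WT1, WT2 or WT3, and 2 without the least occupied quartile of dyads, where STE6 joined it. The gap width call of Ioc3-KO was 0 without WT1, WT2 or WT3 and 2 without weak entries. Height calls of Ioc3-KO were 0 with heights as deposited. Without the least occupied quartile, height calls were 2 for the 3 Ioc3 pools together (AGA2 at -439 bp and FIG1 at -121 bp). They were 2 in Ioc3-KO (AGA2 at -439 bp and FIG1 at 56 bp, not AGA2 at -275 bp) and 3 in Ioc3-Q251K/D252K. Dyad fuzziness calls in Ioc3-KO were 2. With 1 pool left out at a time, calls ran from 0 to 1 for position of the 3 Ioc3 pools together (1 without WT1), for their height (1 without WT1 or Ioc3-R739E/R742E) and for their gene fuzziness (1 without Ioc3-Q251K/D252K). They ran from 0 to 1 for dyad fuzziness in Ioc3-KO (1 without WT2 or WT3) and for height in Ioc3-Q251K/D252K (1 without WT1), and from 1 to 2 for height in Ioc3-KO (2 without WT1). For gene fuzziness in Ioc3-KO they ran from 2 to 3 (3 without WT3, where FUS3 joined FIG1 and FUS1). FUS3 also joined them without the least occupied quartile. With a matching limit of 50 bp, 1 gene (FUS1) was called for fuzziness in the 3 Ioc3 pools together. For position in Ioc3-KO, limma called no dyad in the genome at 50 bp, with the mean read position or without WT1, WT2 or WT3. Without a wild-type pool it also called no gap width of any gene in Ioc3-KO. The same held for Ioc3-KO against the point mutants, so these losses are not particular to the members. The FUS1 summit of Ioc3-KO, at 146 bp, lies beyond 50 bp of the dyad at 92 bp, which is then not matched. The cause of the changes was not tested, except that fits without a wild-type pool have fewer samples. Depth limits entries of few reads, such as those inside the promoter gaps, whose listing in 1 pool sets a gap width.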
